A study of Mus musculus with 2 samples.

Results

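The genes described here encode the ATP-driven chromatin remodelers of the SWI/SNF (BAF), ISWI, CHD, NuRD and INO80 families, 50 listed genes that were matched by symbol to the gene IDs of both count files with GENCODE M21. All 50 were found among the 47643 gene IDs measured. They were read in mRNA of mouse E14 embryonic stem cells of the 129/Ola background, labelled as an AGO1 and AGO2 double KO, in 2 libraries named here replicate 1 and replicate 2. Both libraries came from cells grown in 15% serum with 100 U/mL LIF on plates coated with 0.2% gelatine. Separate cultures or clones behind the libraries are not named in the labels, and every spread given is between these libraries and may be technical. With 1 genotype in hand there is no contrast for the KO, and unmodified cells were not analysed here.

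Remodelers use the energy of ATP to slide, evict or restructure nucleosomes, and most act as large complexes in which one position can be filled by any of several related proteins. Embryonic stem cells are known for a particular form of the BAF complex, called esBAF, built around the ATPase of Smarca4 with the scaffold protein of Smarcc1 and the actin-related protein of Actl6a, and with little of the Smarca2 and Smarcc2 products. Neurons exchange Actl6a for Actl6b, Dpf2 for Dpf1 or Dpf3 and Ss18 for Ss18l1, and the heart and skeletal muscle use Smarcd3. NuRD joins a nucleosome remodeler, usually the Chd4 product, with histone deacetylases, and in stem cells its Mbd3 form is needed for normal lineage commitment.

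Replicate 1 held 34798975 gene counts and replicate 2 held 29789560, so 3 counts, taken as the floor, equal 0.0862 and 0.101 CPM (counts scaled to the library total). Levels are compared between genes in TPM, in which each count is first divided by the merged exon length of the gene and each library is then scaled to the same sum. Intervals are 95% exact intervals and, like the floors, cover counting error only. The targeted genes were read at 70.8 and 141 CPM for Ago1 and at 124 and 129 CPM for Ago2. Ago1 was thus much lower in replicate 1, from 2463 and 4205 counts, and the reason was not tested. Counts summed over exons do not show an edited exon, so they check no genotype. All 8 pluripotency markers reached 1 CPM in both libraries, led in CPM by Dppa5a (3086 and 2743 CPM), Pou5f1 (1421 and 1329 CPM) and Tfcp2l1 (665 and 703 CPM). Markers of cells that use other subunits were also read, and 58% of protein-coding genes reached 1 CPM in both libraries. Of 10 neuron markers 7 reached 1 CPM in both libraries, with summed levels of 390 and 341 CPM of which Stmn2 gave 305 and 255 CPM, while Dcx had no count. Of 8 muscle markers 4 reached it, summing to 110 and 135 CPM with Ttn at 92.4 and 122 CPM, while Myod1 had 2 and 0 counts. CPM is not scaled to length, and Ttn has 116825 merged exon bases. In TPM, Ttn was at 2.19 and 2.87, and the muscle markers summed to 14.2 and 12.3. Of 8 fibroblast markers 2 reached 1 CPM, summing to 27.6 and 26.8 CPM, or 23.9 and 22.7 TPM. Of this sum Thy1 gave 24.7 and 23.1 CPM, and Col3a1, Lum and Postn had no count.

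Remodeler genes were broadly and highly transcribed in these cells. In both libraries 48 of the 50 members reached 1 CPM, beside 58% of protein-coding genes and 29.6% of all gene IDs. The exceptions were Actl6b and Dpf3, subunits of differentiated cells. A level of 100 CPM in both libraries was reached by 27 members, beside 10% of protein-coding genes. CPM is not scaled to length, and members are longer, with a median of 7085.5 merged exon bases against 3527.5 over protein-coding genes. The median member level was 35.5 TPM in replicate 1 and 36.3 TPM in replicate 2, against 17.5 and 17.2 TPM over the 12530 protein-coding genes that reached 1 CPM. Together the members made up 0.690% of all counts of replicate 1 and 0.706% of those of replicate 2. The highest was Rbbp7, which encodes a histone-binding chaperone, at 310 and 339 TPM. The lowest was Actl6b, with 2 counts in replicate 1 and 1 in replicate 2.

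**Figure D1:**
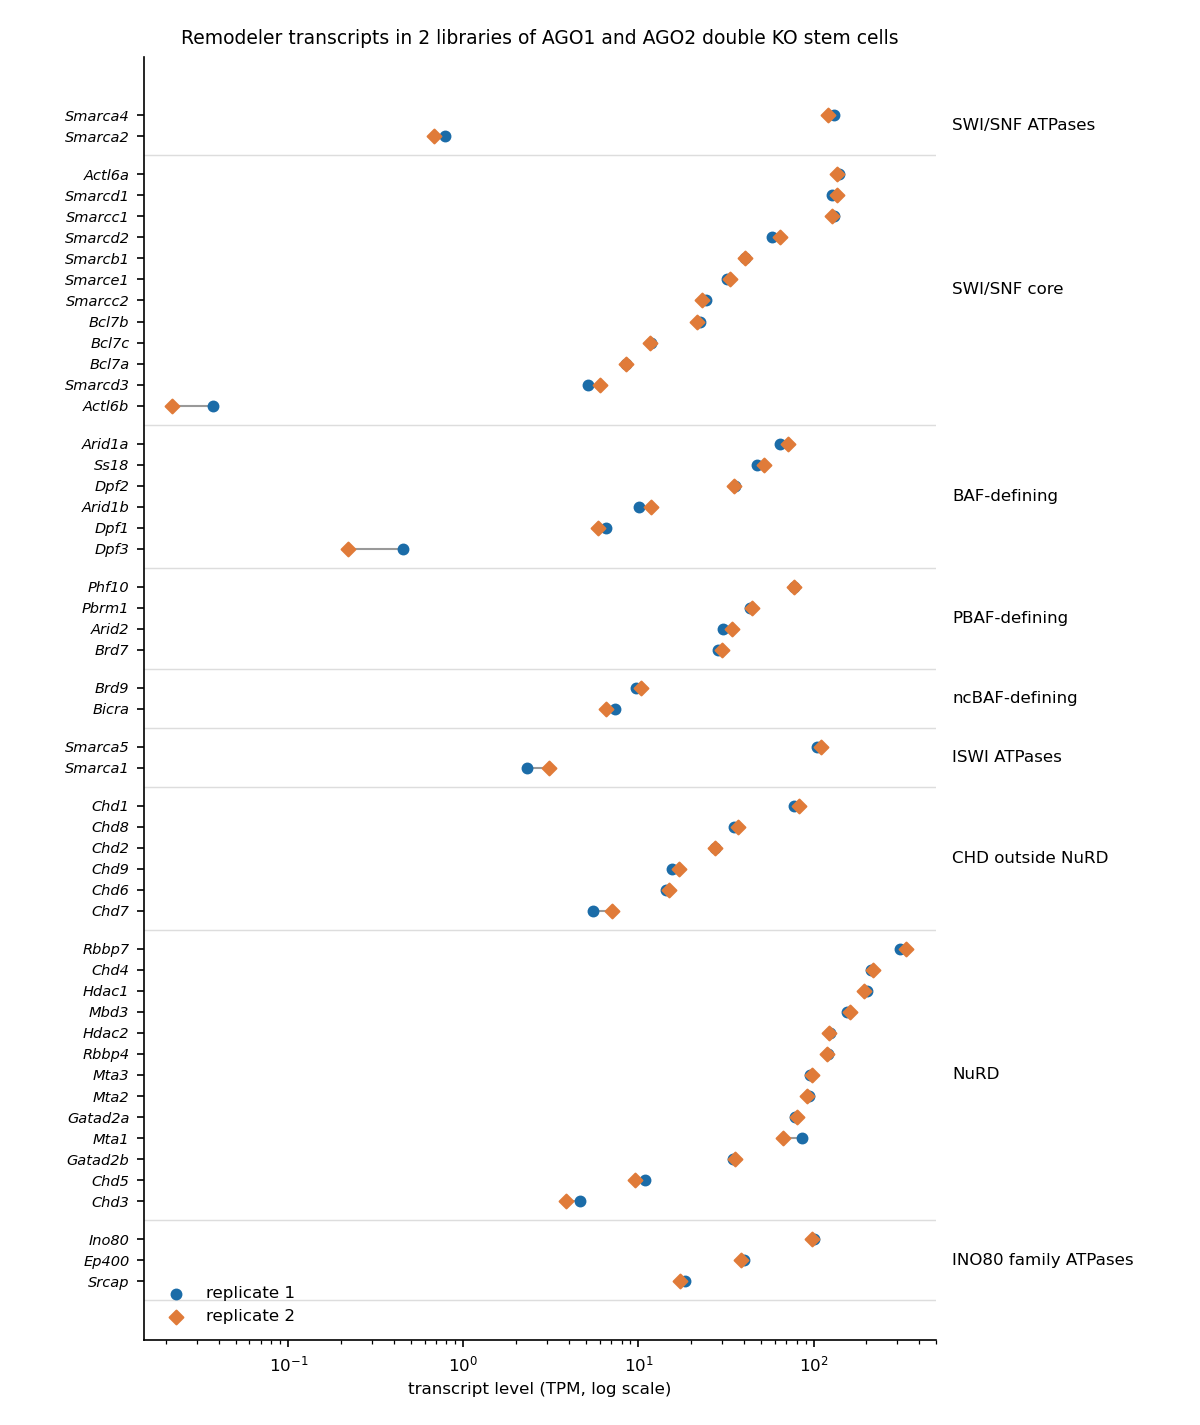
Transcript level in TPM (log scale) of each of the 50 members in replicate 1 (circles) and replicate 2 (diamonds), grouped by complex and sorted by level. Most pairs of points lie on each other, and Actl6b, Dpf3 and Smarca2 stand below 1 TPM.

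The motor of the SWI/SNF complexes is an ATPase encoded by Smarca4, also called Brg1, or by its paralog Smarca2, also called Brm. Smarca4 (ENSMUSG00000032187; GRCm38 chromosome 9, 21616169 to 21704230, plus strand) was at 131 TPM in replicate 1 and 121 TPM in replicate 2, from 10653 and 8463 counts. Smarca2 (ENSMUSG00000024921; chromosome 19, 26605050 to 26778322, plus strand) was at 0.785 and 0.680 TPM, from 141 and 105 counts. The levels did not come near each other in either library. Smarca4 exceeded Smarca2 166-fold in replicate 1 (95% interval 141 to 198) and 178-fold in replicate 2 (147 to 217), and made up 99.4% ± 0.0263 of their summed TPM (SD, n = 2). The size of this ratio depends on the length given to Smarca2, whose annotated transcripts differ widely. It was 72.5-fold with the longest transcript of each gene and 21.7-fold with the mean length of protein-coding transcripts. Their coding sequences are 75.2% identical over the aligned bases, and no more than 0.823% of the 50-base stretches of either gene recurs in another gene.

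The promoters of both ATPase genes are shown because the genes differ so widely in level. The windows run from 250 bases before to 50 after the RefSeq start on GRCm38.p6, on the plus strand, with each CG dinucleotide in capitals.
Smarca4, chr9:21615919-21616218: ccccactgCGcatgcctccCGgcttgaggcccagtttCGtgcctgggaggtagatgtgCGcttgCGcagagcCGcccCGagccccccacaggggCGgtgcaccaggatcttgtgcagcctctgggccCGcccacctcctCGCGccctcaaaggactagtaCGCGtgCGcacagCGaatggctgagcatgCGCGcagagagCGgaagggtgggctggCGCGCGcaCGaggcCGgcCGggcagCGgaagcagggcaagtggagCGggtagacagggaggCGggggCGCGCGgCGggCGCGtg
Smarca2, chr19:26604910-26605209: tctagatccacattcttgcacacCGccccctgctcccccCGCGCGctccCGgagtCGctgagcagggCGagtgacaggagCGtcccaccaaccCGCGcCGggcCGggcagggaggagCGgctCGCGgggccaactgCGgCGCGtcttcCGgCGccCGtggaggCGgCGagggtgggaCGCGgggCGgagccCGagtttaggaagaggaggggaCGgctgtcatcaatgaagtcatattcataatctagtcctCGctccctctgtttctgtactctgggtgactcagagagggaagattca
Smarca4 had 33 CG dinucleotides in this window and Smarca2 had 29, so both are rich in CG compared with the median of 7 over 32851 promoters. That set was the whole promoter list, not limited to protein-coding genes, to expressed genes or to GRCm38.p6. Of all promoters, 8.56% have at least as many as Smarca4 and 12.9% at least as many as Smarca2.

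The scaffold position showed the same order with a smaller ratio. Smarcc1, the scaffold subunit of esBAF, was at 131 TPM in replicate 1 and 128 TPM in replicate 2, whereas its paralog Smarcc2 was at 24.2 and 22.9 TPM. Smarcc2 is the subunit that esBAF is reported to lack at the protein level, and its transcript was well above the floor, with 1692 and 1379 counts. Smarcc1 exceeded Smarcc2 by 5.42-fold (5.16 to 5.71) and 5.59-fold (5.28 to 5.91), and held 84.6% ± 0.271 of their summed TPM. This ratio was 9.01 with the mean length of protein-coding transcripts. Among the SMARCD subunits, which link the complexes to transcription factors, Smarcd1 was at 127 and 136 TPM, Smarcd2 at 58.2 and 64.6 TPM and Smarcd3 at 5.17 and 6.02 TPM. Smarcd1 held 66.2% ± 0.618 of this family and Smarcd3, the muscle member, 2.82% ± 0.141. With the mean length of protein-coding transcripts the ratio of Smarcd1 to Smarcd2 was 3.77, against 2.14 with merged exons. Of the exon bases of Smarcd3, 50.1% are overlapped by genes on the other strand, mainly Chpf2 (2.37 and 2.76 TPM), and since the strand setting of the counting is not given, part of its reads may be theirs. The same holds for 12.7% of the exon bases of Smarcd1, 11.6% of those of Actl6a and 18.05% of those of Rbbp4.

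The actin-related subunits gave the widest contrast of all. Actl6a (ENSMUSG00000027671; chromosome 3, 32706298 to 32726973, plus strand), which keeps progenitors dividing, was at 140 TPM in replicate 1 and 136 TPM in replicate 2, from 6840 and 5740 counts. Actl6b (ENSMUSG00000029712; chromosome 5, 137553517 to 137569582, plus strand), the neuronal member, was at 0.0372 and 0.0216 TPM, with counts under the floor in both libraries. The ratio was 3755 in replicate 1 (95% interval 1039 to 31015) and 6303 in replicate 2 (1131 to 248989), an uncertainty set by the 3 Actl6b counts in all. The coding sequences of this pair are 76.2% identical over 1276 aligned bases, and none of the 50-base stretches of Actl6b recurs in another gene.
Actl6a, chr3:32708296-32708595: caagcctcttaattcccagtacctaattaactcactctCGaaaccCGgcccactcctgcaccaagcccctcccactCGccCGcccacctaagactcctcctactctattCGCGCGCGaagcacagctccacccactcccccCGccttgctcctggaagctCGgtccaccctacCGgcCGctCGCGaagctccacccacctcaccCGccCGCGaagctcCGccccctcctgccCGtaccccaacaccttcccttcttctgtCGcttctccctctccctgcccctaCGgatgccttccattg
Actl6b, chr5:137553296-137553595: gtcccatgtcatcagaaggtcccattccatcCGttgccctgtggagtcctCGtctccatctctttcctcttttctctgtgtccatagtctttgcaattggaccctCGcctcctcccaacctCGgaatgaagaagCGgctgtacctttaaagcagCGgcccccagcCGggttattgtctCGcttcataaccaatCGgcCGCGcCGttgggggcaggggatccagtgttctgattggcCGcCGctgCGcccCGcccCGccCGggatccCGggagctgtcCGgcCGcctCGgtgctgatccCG
These are the promoters of the pair in the same format as above, both on the plus strand. The number of CG dinucleotides was 21 for Actl6a and 23 for Actl6b, so the transcribed gene and the gene at the floor did not stand apart on this measure.

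**Figure D2:**
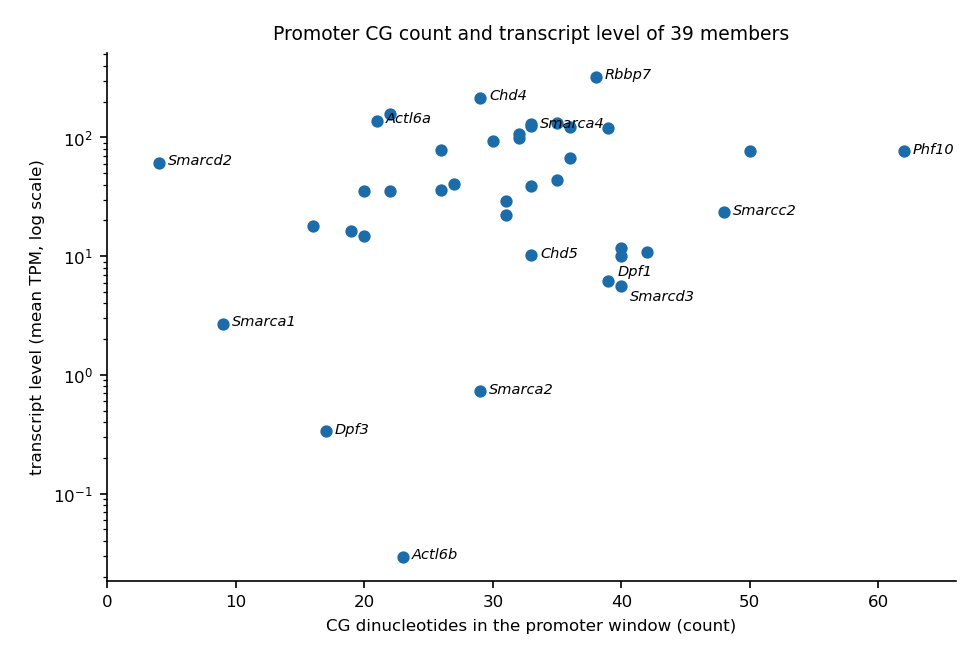
Count of CG dinucleotides in the 300-base promoter window (horizontal axis) against mean level in TPM on a log scale (vertical axis) for the 39 members with a RefSeq promoter, taking the window with the most CG where a gene has several. Members of low level such as Actl6b, Smarca2, Dpf1 and Smarcd3 lie within the range of CG counts of members of high level.

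Promoters were listed for 39 of the 50 members, 46 windows in all. Their median was 31 CG dinucleotides, against 7 over all 32851 windows of the whole list, an unlike set as given above. Single windows ran from 1 at a downstream start of Chd9 to 62 at Phf10. The letters TATAAA, searched on both strands, were in 2 of the 46 windows (4.35%), those of Mbd3 and Smarcd2, against 13.6% of all windows. The Smarcd2 window, with 4 CG dinucleotides, lies at a downstream start inside the annotated gene. Other windows also lie inside their genes, among them those of Actl6a, Smarcc1 and Smarcd3.

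In each family of subunits that mark the canonical BAF complex, the same paralog led in both libraries. In the Dpf and Ss18 families it was the paralog that neurons exchange, whereas no such exchange was described above for the Arid1 genes. Arid1a, the large DNA-binding subunit, was at 64.3 TPM in replicate 1 and 71.0 TPM in replicate 2, and Arid1b was at 10.1 and 11.8 TPM. Arid1a held 86.1% ± 0.493 of this pair. In the family of histone-reading Dpf proteins, Dpf2 was at 35.8 and 35.1 TPM, Dpf1 at 6.56 and 5.84 TPM and Dpf3 at 0.451 and 0.219 TPM. The neuronal gene Dpf1 was thus not silent, with 444 and 340 counts, while Dpf3 had 24 and 10. Dpf2 exceeded Dpf1 by 5.46-fold (4.94 to 6.04) and 6.01-fold (5.37 to 6.76), and by 3.64-fold over both libraries with the mean length of protein-coding transcripts. Ss18, the subunit fused to SSX in synovial sarcoma, was at 47.2 and 52.0 TPM, and its neuronal paralog Ss18l1, which is not among the 50 members, was at 8.21 and 6.55 TPM. The share of Ss18 was 87.0% ± 2.56, and it was 93.8% with the longest transcript and 95.5% with the mean length of protein-coding transcripts. Of 10 neuron markers 7 were above 1 CPM, beside 58% of protein-coding genes, and Stmn2 gave most of their summed CPM. The others were Dcx with no count, Rbfox3 (0.776 and 0.705 CPM) and Snap25 (0.747 and 1.28 CPM). Whether cells with such markers gave the reads of Dpf1 and Ss18l1 was not tested.

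The remaining shared subunits were all transcribed. Smarcb1, the tumour suppressor of rhabdoid tumours, was at 40.5 TPM in both libraries, and Smarce1, a subunit with a DNA-binding HMG domain, was at 32.1 and 33.2 TPM. For Smarce1, 15.0% of the 50-base stretches recur in other genes, so its counts are less certain. Of the small Bcl7 subunits, Bcl7b was at 22.5 and 21.6 TPM, Bcl7c at 11.8 and 11.7 TPM and Bcl7a at 8.44 and 8.50 TPM. Their order changed with the transcript length used, since Bcl7c held 27.8% of the family with merged exons and 58.9% with the mean length of protein-coding transcripts, so the order of Bcl7 levels is not settled by these counts.

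PBAF and the noncanonical BAF complex are the other SWI/SNF forms. The PBAF subunit genes were Phf10 at 76.9 TPM in replicate 1 and 77.5 TPM in replicate 2, Pbrm1 at 43.4 and 44.2 TPM, Arid2 at 30.3 and 34.3 TPM and Brd7 at 28.6 and 29.8 TPM. Pbrm1 encodes a protein with many bromodomains and Arid2 takes the place of the Arid1 proteins in this form. Arid1a exceeded Arid2 by 2.12-fold (2.04 to 2.20) and 2.07-fold (1.99 to 2.15). Both members that are specific to the noncanonical complex were lower than these 4 with merged exon lengths. Brd9, a bromodomain protein, was at 9.66 and 10.3 TPM, and Bicra, its scaffold, was at 7.38 and 6.52 TPM, while the Bicra paralog Bicral, outside the 50 members, was at 61.4 and 62.8 TPM. Brd9 was at 0.337 and 0.346 of the level of Brd7, but with the mean length of protein-coding transcripts this ratio was 0.997.

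**Figure D3:**
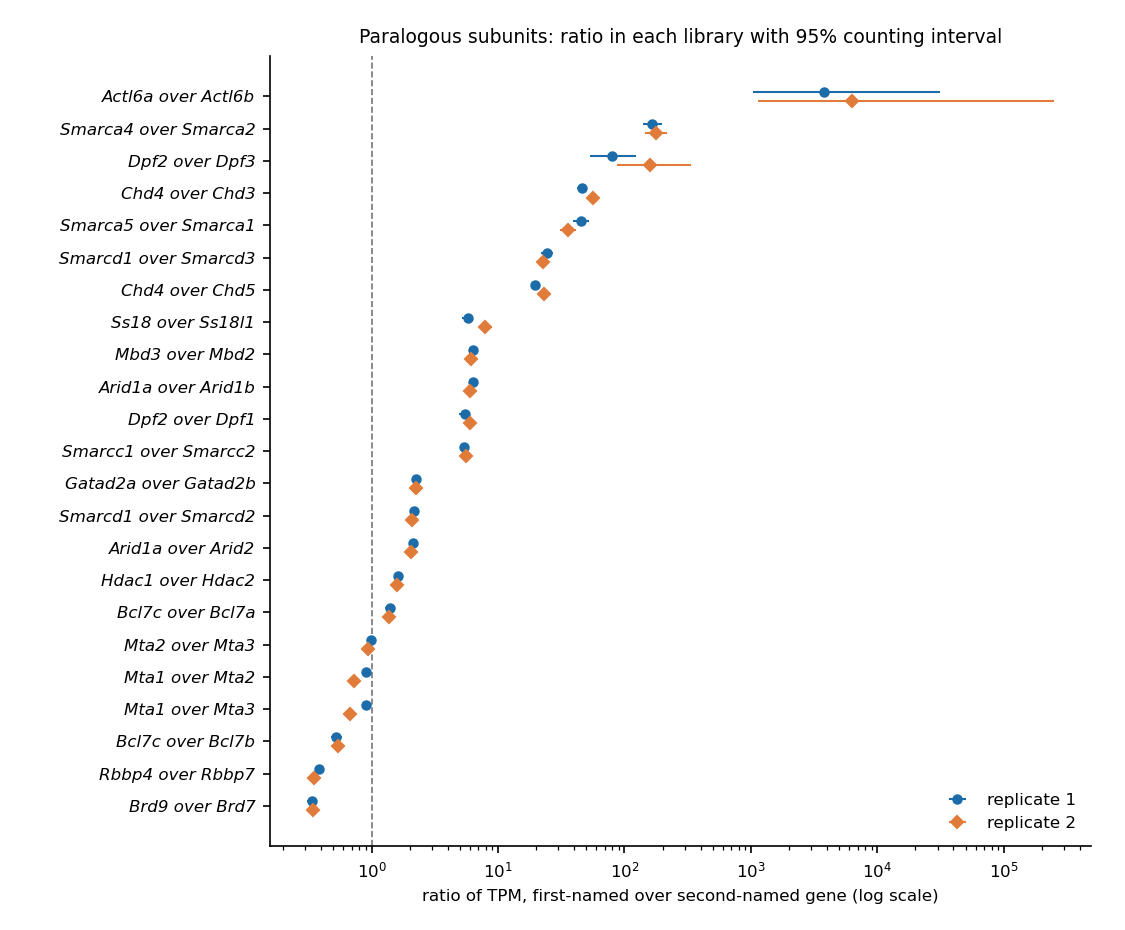
Ratio of TPM between paralogous or exchangeable subunits (log scale), first-named over second-named gene, in replicate 1 (circles) and replicate 2 (diamonds) with 95% counting intervals; the dashed line marks equal levels. In 17 of the 23 pairs the first-named gene was higher in both libraries, and in the other 6 it was lower in both. The order of naming was chosen and some genes recur in several pairs, so this count only describes the figure.

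The ISWI ATPases slide and space nucleosomes. Smarca5, the form of proliferating cells, was at 104 TPM in replicate 1 and 111 TPM in replicate 2, and Smarca1, a form best known from brain and gonads, was at 2.31 and 3.09 TPM. Smarca5 exceeded Smarca1 45.1-fold (38.8 to 52.6) and 35.8-fold (31.2 to 41.3), with intervals that share the stretch from 38.8 to 41.3. With the mean length of protein-coding transcripts the ratio over both libraries was 24.3. Of the Smarca5 sequence, 28.2% of 50-base stretches recur in other genes, mainly Gm13135, so its level is less certain than that of Smarca1.

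Among CHD remodelers outside NuRD, Chd1 led with 76.9 TPM in replicate 1 and 82.3 TPM in replicate 2. Chd1 binds trimethylated lysine of histone H3 at active promoters and is required for the open chromatin of embryonic stem cells. Chd8, a regulator of Wnt target genes, was at 35.2 and 36.8 TPM, and Chd2, which takes part in histone deposition, was at 27.4 and 27.5 TPM. Chd9 (15.6 and 17.1 TPM) and Chd6 (14.4 and 15.0 TPM) were lower. Chd7, the gene mutated in CHARGE syndrome, was the lowest of the 6, at 5.52 and 7.07 TPM. The gene 1810026B05Rik overlaps 18.4% of the exon bases of Chd2 on the same strand, and its own level was 5.25 and 5.91 TPM.

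In NuRD the remodeler position was filled almost wholly by Chd4 at the transcript level. Chd4 (ENSMUSG00000063870; chromosome 6, 125095981 to 125130591, plus strand) was at 214 TPM in replicate 1 and 219 TPM in replicate 2. Chd5, known mainly from neurons and testis, was at 10.9 and 9.51 TPM, from 1320 and 987 counts, and Chd3 was at 4.61 and 3.86 TPM. Chd4 made up 93.7% ± 0.728 of the 3 genes, Chd5 4.43% ± 0.481 and Chd3 1.84% ± 0.247. Chd5 was the higher of the minor genes with merged exons, but with the mean length of protein-coding transcripts both held about the same share (2.53% each). None of the 50-base stretches of Chd3 or Chd5 recurs in another gene. Neuron markers had the mixed levels given above, and whether cells with such markers gave the share of Chd5 was not tested.

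The methyl-CpG-binding position separates Mbd3 and Mbd2 forms of NuRD, which do not occur in the same complex. Mbd3 was at 155 TPM in replicate 1 and 161 TPM in replicate 2, and Mbd2, outside the 50 members, was at 24.6 and 26.3 TPM. Mbd3 exceeded Mbd2 by 6.31-fold (5.88 to 6.77) and 6.12-fold (5.69 to 6.59). The Mbd3 form is the one with known roles in the exit from pluripotency.

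The other NuRD positions were shared by paralogs. The scaffold genes Mta1 (85.8 and 66.9 TPM), Mta2 (94.4 and 91.5 TPM) and Mta3 (94.9 and 98.4 TPM) were within a narrow range, holding 28.6% ± 3.65, 35.0% ± 0.949 and 36.4% ± 2.71 of the family. The interval of the Mta2 to Mta3 ratio held equal levels in replicate 1, at 0.995 (0.958 to 1.03), and Mta2 was slightly lower in replicate 2 at 0.930 (0.893 to 0.969). With the mean length of protein-coding transcripts, Mta3 held 60.2%, so how far Mta3 led is uncertain. Gatad2a, which bridges the remodeler and the deacetylase parts, was at 77.8 and 80.3 TPM, and Gatad2b at 34.8 and 35.8 TPM. Their ratio of 2.24 with merged exons was 1.12 with the mean length of protein-coding transcripts, so the size of this gap is uncertain. The deacetylase gene Hdac1 was at 201 and 194 TPM and Hdac2 at 125 and 122 TPM, a ratio of 1.61 (1.56 to 1.67) and 1.60 (1.54 to 1.65). For Hdac1, 35.3% of the 50-base stretches recur in other genes, mainly Gm10093, and reads may be lost to or gained from them. Among the histone chaperone genes, which also serve Polycomb and chromatin assembly complexes, Rbbp7 was at 310 and 339 TPM and Rbbp4 at 120.1 and 119 TPM. By raw counts their order was the reverse, with 11360 and 10671 counts for Rbbp7 and 13226 and 11227 for Rbbp4, since the merged exons span 2909 bases in Rbbp7 and 8744 in Rbbp4.

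**Figure D4:**
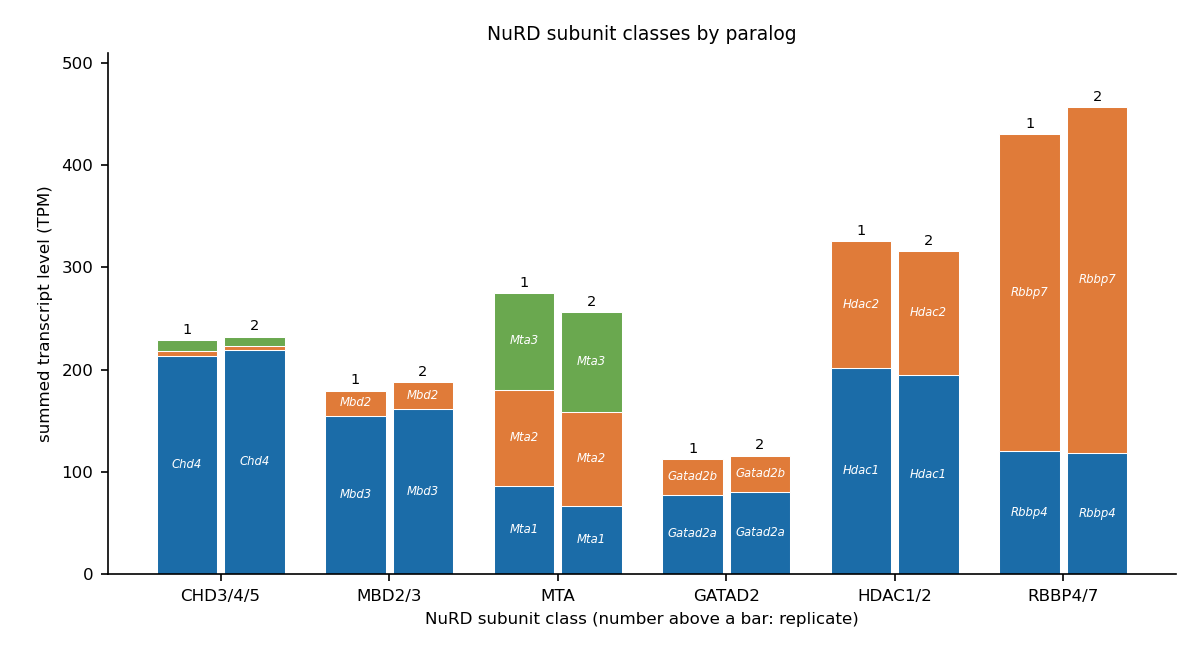
Summed TPM of each NuRD subunit class in both libraries, split by paralog, with the replicate number above each bar and the bars starting at 0. Chd3 and Chd5 are the thin middle and top segments of the first class; Chd4 and Mbd3 dominate their classes, whereas the 3 Mta genes hold similar segments.

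Summed over paralogs, the classes of NuRD ranged from 113 TPM in replicate 1 and 116 TPM in replicate 2 for Gatad2a with Gatad2b to 430 and 457 TPM for Rbbp4 with Rbbp7. The Chd3, Chd4 and Chd5 class summed to 229 and 232 TPM, the Mbd2 and Mbd3 class to 180 and 188 TPM, the Mta class to 275 and 257 TPM and the Hdac1 and Hdac2 class to 326 and 316 TPM. These are transcript levels and carry no information on how many copies of each protein a complex holds.

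The INO80 family exchanges histone variants. Ino80, whose complex occupies promoters of pluripotency genes, was at 100.4 TPM in replicate 1 and 98.3 TPM in replicate 2. Ep400, the ATPase of the TIP60 complex needed for embryonic stem cell identity, was at 39.9 and 38.5 TPM. Srcap was at 18.5 and 17.3 TPM, but 61.7% of its exon bases are shared with Gm42715, an annotated gene on the same strand that had 3579 and 2880 counts beside 3671 and 2955 for Srcap.

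Genes that work with these remodelers were read from lists outside the 50 members. Of 61 such genes 60 reached 1 CPM in both libraries, and the exception was Bcl11b (11 and 3 counts), a BAF subunit of lymphoid and neural cells. Its list of 5 other SWI/SNF genes was led by Actb (1686 and 1900.4 TPM), which encodes the actin of the complexes, and its paralog Bcl11a was at 2.18 and 1.35 TPM. Among NuRD partners all 8 passed, led by the demethylase gene Kdm1a (149 and 145 TPM) and by Sall1 (138 and 144 TPM), a zinc finger gene that recruits NuRD, with Mbd2 and Zmynd8 (31.5 and 28.5 TPM) lowest. All 9 ISWI partners passed, from Rsf1 (13.97 and 14.19 TPM) and Baz2b (17.97 and 17.88 TPM) to Baz1b (51.6 and 48.8 TPM) and Baz2a (112 and 100.2 TPM). All 13 partners of the INO80 complex passed, led by the helicase genes Ruvbl1 (233 and 239 TPM) and Ruvbl2 (206 and 192 TPM), with Actr5 (9.66 and 8.56 TPM) and Nfrkb (12.1 and 10.6 TPM) lowest. All 15 partners of EP400 and SRCAP passed, led by Morf4l1 (145 and 159 TPM) and Yeats4 (89.2 and 96.3 TPM), with Meaf6 (13.3 and 12.9 TPM) and Ing3 (14.6 and 15.5 TPM) lowest. Of 11 other members of the SNF2 ATPase family all passed, led by Hells (134 and 145 TPM), which supports DNA methylation, and by Atrx (48.7 and 48.0 TPM), with Ercc6 (8.86 and 9.44 TPM) and Shprh (10.4 and 10.9 TPM) lowest. Between the libraries, the exact binomial test described next called 9 of the 61 genes higher in replicate 1, beside 13.1% of all genes, and 9 lower, beside 11.2%. The exact test of edgeR called none, beside 0.456% of all genes.

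The libraries were then compared with each other, to set the error of these levels. The test was a two-sided exact binomial test of the reads of these libraries, not of conditions, with Benjamini-Hochberg adjustment over 19078 genes of at least 10 counts and a threshold of 0.05. It weighs a difference against counting error only, and it called 24.2% of all genes tested. Of the 49 members tested it called 18, of which 14 were lower in replicate 1, beside 11.2% of all genes, and 4 higher, beside 13.1%. The test calls more genes where counts are high. Of the 43 members with at least 1000 counts it called 17, or 39.5%, and of all genes at that depth it called 39.5% too, so the members' share was that of the background. Over the 49 members tested, the median log2 ratio, replicate 1 over replicate 2, was -0.02 against 0.01 over all genes tested. The median absolute log2 ratio was 0.07 against 0.16. Depth differs between these sets, and among genes with at least 1000 counts the median absolute log2 ratio was 0.06 for members and 0.09 for all genes. Of the 43 members 34 were within 1.1-fold. The same share was not counted over all genes at that depth, so this is no trait of the members. The common spread of these libraries came to 9.99%, which edgeR terms a biological coefficient of variation though it may be technical here. The exact test of edgeR used a trended dispersion from the same libraries, not this common value. That test called 0 members and 0.456% of all genes. At an unadjusted p under 0.05 it held 1 member, beside 4.51% of all genes, and the binomial test held 23, beside 33.4%.

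Mta1 had the lowest p of the members. It had 3355 counts in replicate 1 and 2247 in replicate 2, or 96.4 CPM (interval 93.2 to 99.7) and 75.4 CPM (72.3 to 78.6). The intervals do not overlap, and the log2 ratio was 0.36 ± 0.04 (counting SE). The adjusted p was 5.43e-18 by the exact binomial test, against 0.743 by the edgeR one. Chd7 moved the other way, with 958 and 1055 counts, or 27.5 CPM (25.8 to 29.3) in replicate 1 and 35.4 CPM (33.3 to 37.6) in replicate 2. Its log2 ratio was -0.36 ± 0.06, and the adjusted p was 4.22e-07 by the exact binomial test but 1.00 by the edgeR one. Also called lower in replicate 1, by the log2 ratio, were Arid1a (-0.15), Arid1b (-0.23), Arid2 (-0.19), Rbbp7 (-0.13), Ss18 (-0.14), Smarcd1 (-0.11), Smarcd2 (-0.16), Smarca5 (-0.09), Smarca1 (-0.42), Chd1 (-0.10), Chd4 (-0.04), Chd8 (-0.07) and Chd9 (-0.13). Called higher beside Mta1 were Smarca4 (0.11), Chd5 (0.20) and Srcap (0.09). The largest log2 ratio in size was that of Dpf3 (1.01 ± 0.54), which rests on 24 and 10 counts and was not called (adjusted p 0.167, exact binomial test).

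The difference between the libraries moved with base composition, among the members as among all genes. Across the 49 members Spearman's rho of the log2 ratio with the GC content of the longest transcript was 0.34, across all genes tested it was 0.19 and across all genes with at least 1000 counts it was 0.37, given as descriptions, since genes of the same libraries are not replicates. After a smooth trend on GC content and length was removed, 17 members were called, beside 21.3% of all genes, and 12 of them were among the 18 called before. Of the 17, 2 were higher in replicate 1, beside 10.2% of all genes, and 15 lower, beside 11%. These shares are over all genes tested, whose median count was 649, against 7805.5 for the members. Shares by direction were not counted at matched depth, so the split is not read as a trait of the members. Smarca4 (0.02), Smarca5 (-0.03), Chd1 (-0.05), Smarca1 (-0.36), Chd5 (0.10) and Srcap (0.03) were no longer called on the corrected log2 scale. Newly called were Smarcd3 (-0.33), Mbd3 (-0.11), Mta3 (-0.12), Gatad2a (-0.12) and Hdac2 (0.09). Mta1 (0.27) and Chd7 (-0.40) stayed called.

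**Figure D5:**
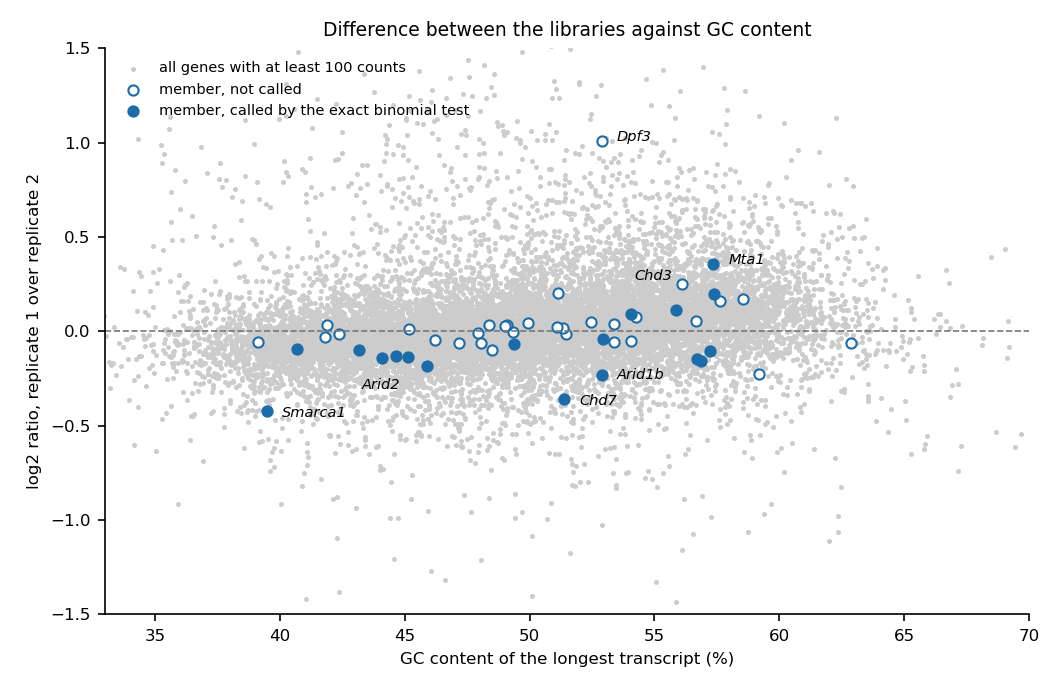
Log2 ratio of replicate 1 over replicate 2 (vertical axis) against GC content of the longest transcript in percent (horizontal axis) for 13507 genes with at least 100 counts (grey) and for the 49 members tested (open: not called; filled: called by the exact binomial test). Apart from Dpf3 the members lie between -0.42 and 0.36; 54 genes fall outside the axes and are not drawn.

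Because Argonaute proteins act through microRNAs, the sites that microRNAs could pair with in these genes were also looked up. A microRNA pairs mainly through its seed, bases 2 to 8, given in capitals. The miR-290 cluster is known as an abundant microRNA cluster of unmodified mouse embryonic stem cells. Its miR-294-3p and miR-295-3p share 1 seed. By contrast, miR-9-3p is a microRNA of neurons that is known, with miR-124, to repress Actl6a when progenitors become neurons. MicroRNAs themselves were not measured.
mmu-miR-294-3p: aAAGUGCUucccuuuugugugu
mmu-miR-295-3p: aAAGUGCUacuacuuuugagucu
mmu-miR-9-3p: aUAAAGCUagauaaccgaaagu
The letters AGCACTT, which pair with the first seed, were found in the annotated 3' untranslated region of 8 of 50 members (16%) and of 13.2% of 20392 protein-coding genes. The letters AGCTTTA, which pair with the seed of miR-9-3p, were found in 8 of 50 members (16%) and 10.1% of all. Members have longer 3' untranslated regions, with a median of 1013 bases against 802.

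Those 8 with AGCACTT were Bcl7a, Chd2, Chd6, Ep400, Gatad2b, Ino80, Rbbp7 and Smarcc1, and the matches of Smarcc1 and Gatad2b are shown with the paired letters in capitals. Those with AGCTTTA were Actl6a, Arid2, Ino80, Rbbp4, Smarca2, Smarcc1, Smarcd2 and Smarce1, and the match of Actl6a is shown because Actl6a is the known target.
Smarcc1, AGCACTT: aaattgactccAGCACTTgccttctccccg
Gatad2b, AGCACTT: caaatgtattgAGCACTTaataaaggagca
Actl6a, AGCTTTA: tcaacgtctgtAGCTTTAgtacactcagga
The Actl6a match lies at bases 38 to 44 of a region of 371 bases. The transcripts that carry these letters ranged in level from Smarca2 to Rbbp7, the highest member. A match is a description of the sequence, and with no unmodified cells analysed here its effect on these levels cannot be read.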

How the data were processed

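PolyA RNA of 2 libraries of 1 group was profiled. Per the labels' protocols, Trizol RNA (1 ug each) went into reverse-stranded TruSeq libraries. The submitters' processing notes name STAR 2.4.2a and mm10 (GRCm38). Counts per Ensembl gene, not normalized, are what the authors deposited, with totals of 34798975 and 29789560; how reads were counted, with which strand setting and with what treatment of shared reads, is not given in the sources used here. Positions, lengths and names came from GENCODE M21, which named 47224 of 47643 IDs. The other 419 took 0.116 and 0.124% of counts and stayed in the totals.

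CPM used the library total and TPM the merged exon length. Ratios of paralogs carry Clopper-Pearson intervals of the count share through the lengths, and CPM carries exact Poisson intervals. The libraries were compared by a two-sided exact binomial test (SciPy 1.17.1) at sizes scaled by edgeR's TMM factors (edgeR 4.0.16), with log2 ratios at a pseudocount of 0.5 counts. The exact test of edgeR took its trended dispersion from both libraries as 1 group, so it contains the differences it is set against. No edgeR quasi-likelihood test between genotypes was possible with 1 genotype. Size factors of DESeq2 1.42.0, other filters, lengths and a lowess correction (statsmodels 0.14.6, fraction 0.3) on GC content and length were alternatives. The check of 50-base stretches compared each member's transcripts with those of all other genes. Coding-sequence identity came from global alignment of the longest coding sequences, since no protein table was used here. MicroRNAs and the promoters of members are RefSeq entries on GRCm38.p6. The 3' untranslated regions come from the GENCODE transcript with the longest coding sequence.

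The members, lists, pairs and tests were chosen with earlier results of these data known. The rule for named genes allowed every member, the 2 highest and 2 lowest of each partner list, and the 3 highest markers; marker genes with few counts and overlapping genes were named with their values in view. Both libraries were kept apart. Their counts differed beyond sampling noise (chi-square per degree of freedom 9.83), which does not show whether separate cultures lie behind them.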

Additional observations from a re-analysis of the deposited data

How the results depend on the processing

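No paired analysis was possible because the series has 1 group, so no replicate number is shared between groups. The count of 18 members called between the libraries was 0 in edgeR's exact test, which uses the spread of these libraries, and ran from 17 to 19 under the other normalizations, filters and the GC and length correction. The members expressed ran from 47 to 48 under the other thresholds, and stayed at 48 with either library alone. The median member level of 5.21 on the log2(TPM + 1) scale was 5.41 with the longest transcript and 6.93 in CPM, which is not scaled to length; with 1 library it was 5.19 and 5.22. With the order of naming as chosen, the first-named subunit was higher in 17 of 23 pairs, and in 16 to 19 under other lengths or none. On the log2 scale the ratio of Bcl7c to Bcl7a was -0.32 with the longest transcript, that of Bcl7c to Bcl7b 0.95 with the mean length of protein-coding transcripts and 0.68 in raw counts, and that of Rbbp4 to Rbbp7 0.15 in raw counts. These changes come from the lengths alone. The leading gene was the same in 14 of 15 families with the mean length of protein-coding transcripts, the exception being the Bcl7 genes, and in all 15 under the longest transcript and with either library alone. Depth limits Actl6b and Dpf3, and counts cannot separate Srcap from Gm42715.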
